A study of Mus musculus with 11 samples.

Results

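The genes described here are 43 synaptic organizers and neuronal adhesion molecules of the immunoglobulin superfamily, of the 54752 genes counted in neurons of 3 sensory nuclei of the newborn mouse thalamus. They were taken by gene family, though not every gene of each family is among them. They are 2 neurexins, 3 neuroligins, 3 cerebellins, 4 teneurins, 3 latrophilins (Adgrl), 3 Flrt, 4 Lrrtm and 6 Slitrk genes, 6 contactins, 3 contactin-associated proteins (Caspr), 4 genes of the L1 family and 2 Ncam genes. Each symbol matched 1 gene identifier in the count tables. The nuclei were the dorsolateral geniculate (dLG), which relays vision, the ventral posteromedial (VPM), a relay of facial touch, and the ventral division of the medial geniculate (MGv), a relay of sound, and the study asked whether their neurons differ in gene expression.

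All groups had the same genotype, Gbx2CreER-IRES-EGFP/+::R26lsl-tdTomato/+, on an ICR/CD-1 background, and the same age, postnatal day 0. In this line a tamoxifen-inducible Cre, expressed from 1 allele of Gbx2, switches on the red reporter tdTomato in early postmitotic thalamic neurons, so only neurons that expressed Gbx2 at induction could be sorted. Tissue of 4 brains was pooled for each library, and the data held 4 dLG, 4 VPM and 3 MGv libraries. The p-values below therefore measure the spread between pools, and with bulk RNA, fewer cells of a type and less RNA per cell cannot be told apart.

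Synaptic organizers are surface or secreted proteins that reach across the cleft and line up the release machinery with the receptors. Neurexins on the axon terminal bind neuroligins, Lrrtm proteins or, through secreted cerebellins, delta glutamate receptors, and teneurins bind latrophilins, which also bind Flrt proteins. Contactins, L1-family proteins and Ncam carry immunoglobulin domains and act earlier, in the growth and bundling of axons, and later in the nodes of myelinated fibres. Around birth thalamic axons are entering the cortex while retinal, trigeminal and auditory inputs are sorting within the nuclei.

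Libraries held 10.2 to 23.6 M counts, and the 3 MGv libraries, with 10.2 to 13.2 M counts, were shallower than the others. Levels are CPM, the share of a gene in its library's counts, in parts per M, after TMM scaling between libraries, and the values of a nucleus are listed in order of replicate number (n = 4 for dLG, 4 for VPM and 3 for MGv). A contrast was called at a Benjamini-Hochberg adjusted p under 0.1 over the 15907 genes tested by edgeR's quasi-likelihood test, and each difference between nuclei is a log2 fold change ± its standard error (SE). Summed pan-neuronal markers were high, at 10922 to 15408 CPM, and the 6 thalamic neuron markers summed to 1895 to 3016 CPM. Gfap (astrocytes), Sox10 (oligodendrocytes), Cdh5 (endothelium) and Slc32a1 (inhibitory neurons) were at or below 3 counts in each library. Each was the only such gene of its list, of 6 astrocyte and radial glia, 6 oligodendrocyte-lineage, 5 endothelial and 8 inhibitory and prethalamic genes. Within the pan-neuronal and thalamic lists single genes differed between nuclei. In MGv, Gbx2, the gene that drives the Cre, had 272 to 333 CPM against 14.2 to 51.6 elsewhere, and Tcf7l2 had 1072 to 1286 CPM against 382 to 696. Prox1 had 4.08 to 13.1 CPM in MGv against 47.3 to 165 elsewhere, and the neurofilament genes Nefm and Nefl had 254 to 327 and 699 to 793 CPM against at least 491 and 1222. Some sums of other markers also moved with the nucleus. The 6 oligodendrocyte-lineage genes, mainly Mbp, summed to 74.9 to 85.9 CPM in MGv against 12.5 to 30.2 in dLG and 32.7 to 43.4 in VPM. The 4 habenular genes, mainly Gng8, summed to 12 to 34.5 CPM in MGv against at most 10.2 elsewhere. The 8 genes of inhibitory and prethalamic neurons, in VPM mainly Sst, summed to 4.33 to 14.1 CPM in VPM, 0.382 to 3.32 in dLG and 3.16 to 9.14 in MGv. Blood genes reached 467 CPM in dLG replicate 3 and 3.68 to 17.6 CPM in VPM, and the 9 genes of the dissociation response summed to 342 to 428 CPM in VPM against at least 513 elsewhere. Slc1a3, a glutamate transporter of glia, had 45.5 to 90.3 CPM in MGv against at most 17.9 elsewhere, while the 6 astrocyte and radial glia genes overlapped between nuclei at 48.8 to 174 CPM in sum. Endothelial genes summed to 1.86 to 4.77 CPM in VPM against at most 2.02 elsewhere, and microglial genes to 5.28 to 19.1 CPM. The part of these cells and responses in the results below was not tested. One library of each nucleus also stood apart: the chaperone gene Hspa8 had 3.05 CPM in dLG replicate 2, 4.09 in VPM replicate 3 and 5.56 in MGv replicate 1, against 159 to 581 CPM in the other libraries. Counts of calls are therefore also given without these 3 libraries.

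All 43 members passed the filter on low counts, and their mean over the 11 libraries ranged from 1.44 to 769 CPM, with a median of 57.7 CPM against 14.1 CPM for all genes tested. Levels of different genes can be compared only per length, and divided by kilobases of exon the members spanned from 0.199 CPM per kb for Slitrk2 to 88.8 for Ncam1. After Ncam1, the neural cell adhesion molecule that carries polysialic acid in growing neurons, the highest length-scaled means were those of Cbln2 at 53.1, Lrrtm1 at 46.3, L1cam at 42.0, Chl1 at 36.6 and Tenm2 at 29.7 CPM per kb. At the other end, Slitrk2, Cntn3 and Cntnap1 were below 1 CPM per kb, and a single library, MGv replicate 3, had as few as 2 counts of Cntn3. Exons of a gene on the opposite strand cover 25.1% of the exonic bases of Lrrtm4, 15.6% of Adgrl1 and 8.25% of Tenm1, and from 6.40% to 9.16% of Nrxn2, Nlgn1, Adgrl3, Cntn5 and Cntnap4. The libraries do not mark strand, so reads on the covered bases of these 8 members cannot be told from those of the gene opposite.

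**Figure D1:**
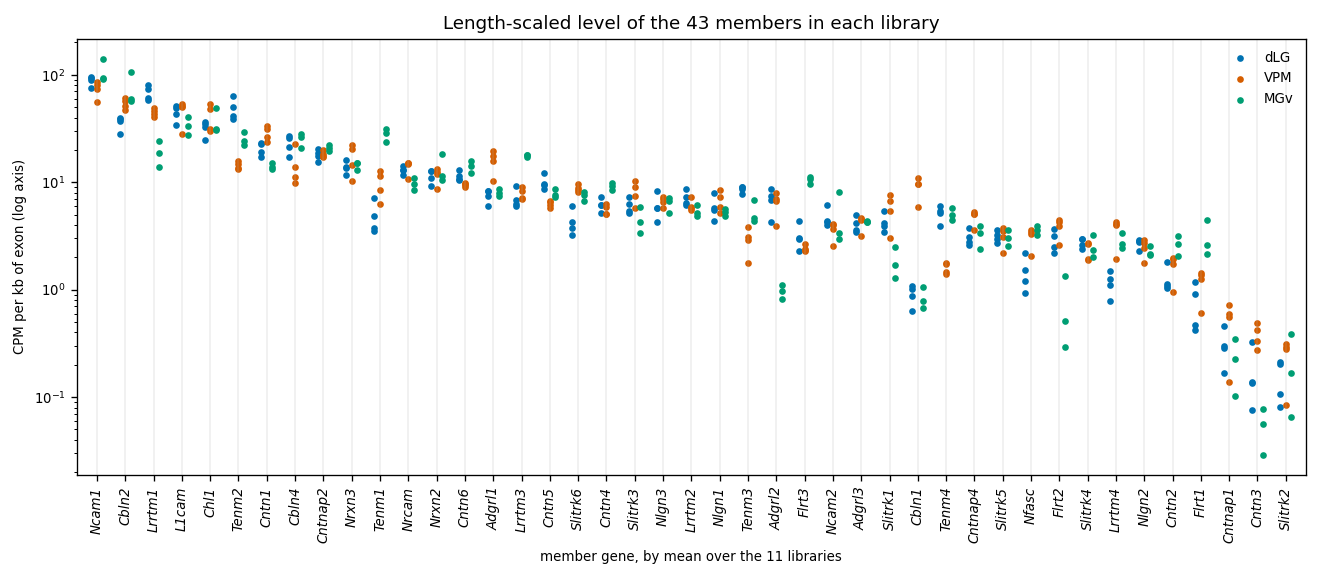
CPM per kb of exon (log axis) of the 43 members, ordered by their mean over the 11 libraries, with 1 point per library coloured by nucleus. Means run from 88.8 CPM per kb for Ncam1 to 0.199 for Slitrk2, and Cbln1 in VPM and Adgrl2 and Flrt2 in MGv lie apart from the other nuclei.

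Between dLG and VPM, the visual and the somatosensory nucleus, 14 of the 43 members were called, against 10.7% of all genes tested. Of these, 5 were higher in dLG and 9 in VPM, against 4.97% and 5.74% of all genes. Higher in dLG were Lrrtm1, Cntn5 and the teneurins Tenm2, Tenm3 and Tenm4. Higher in VPM were Cbln1, Cbln2, Tenm1, Adgrl1, Lrrtm4, Slitrk6, Cntn1, Cntnap4 and Nfasc. The libraries of the 2 nuclei did not overlap for 12 members, against 14.6% of all genes tested. Without the 3 libraries of low Hspa8, 16 members were called, of which 13 were among the 14, against 16.1% of all genes then tested. With limma voom and sample quality weights 26 members were called, against 27.7% of all genes. By edgeR, 9 of the 43 members (20.9%) were called with a log2 fold change of at least 1, against 5.8% of all genes tested.

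Between dLG and MGv, the auditory nucleus, 18 members were called, against 16.1% of all genes tested. Of these, 8 were higher in dLG and 10 in MGv, against 8.61% and 7.49% of all genes. The 8 were Tenm2, Tenm3, Adgrl2, Flrt2, Lrrtm1, Slitrk1, Cntn1 and Nrcam, and the 10 were Cbln2, Tenm1, Flrt1, Flrt3, Lrrtm3, Lrrtm4, Slitrk6, Cntn2, Cntn4 and Nfasc. The libraries of dLG and MGv did not overlap for 18 of the 43 members (41.9%), the same 18 that were called, against 23.8% of all genes tested. Without the 3 libraries of low Hspa8 the 18 were called again, along with 2 others, against 19.8% of all genes then tested.

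Between VPM and MGv, 22 members were called, against 19% of all genes tested, and 11 were higher in each nucleus, against 10.4% (VPM) and 8.56% (MGv) of all genes. Higher in VPM were Cbln1, Adgrl1, Adgrl2, Flrt2, Lrrtm1, Slitrk1, Slitrk3, Cntn1, Cntn3, Cntnap4 and Nrcam, and higher in MGv were Cbln4, all 4 teneurins, Flrt1, Flrt3, Lrrtm3, Cntn4, Cntn6 and Ncam1. Without the 3 libraries of low Hspa8, 25 members were called, of which 21 were among the 22, against 19% of all genes then tested. With all libraries, 12 of the 43 members (27.9%) were called with a log2 fold change of at least 1, against 9.8% of all genes tested. Each pair of contrasts shares the libraries of a nucleus, so the 3 lists are not independent of each other. A test of any difference among the 3 nuclei called 27 of the 43 members, against 24.2% of all genes tested. Without regard to direction, the members had a median log2 fold change of 0.40 for dLG and VPM, 0.42 for dLG and MGv and 0.57 for VPM and MGv, where all genes tested had medians of 0.27, 0.32 and 0.36.

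**Figure D2:**
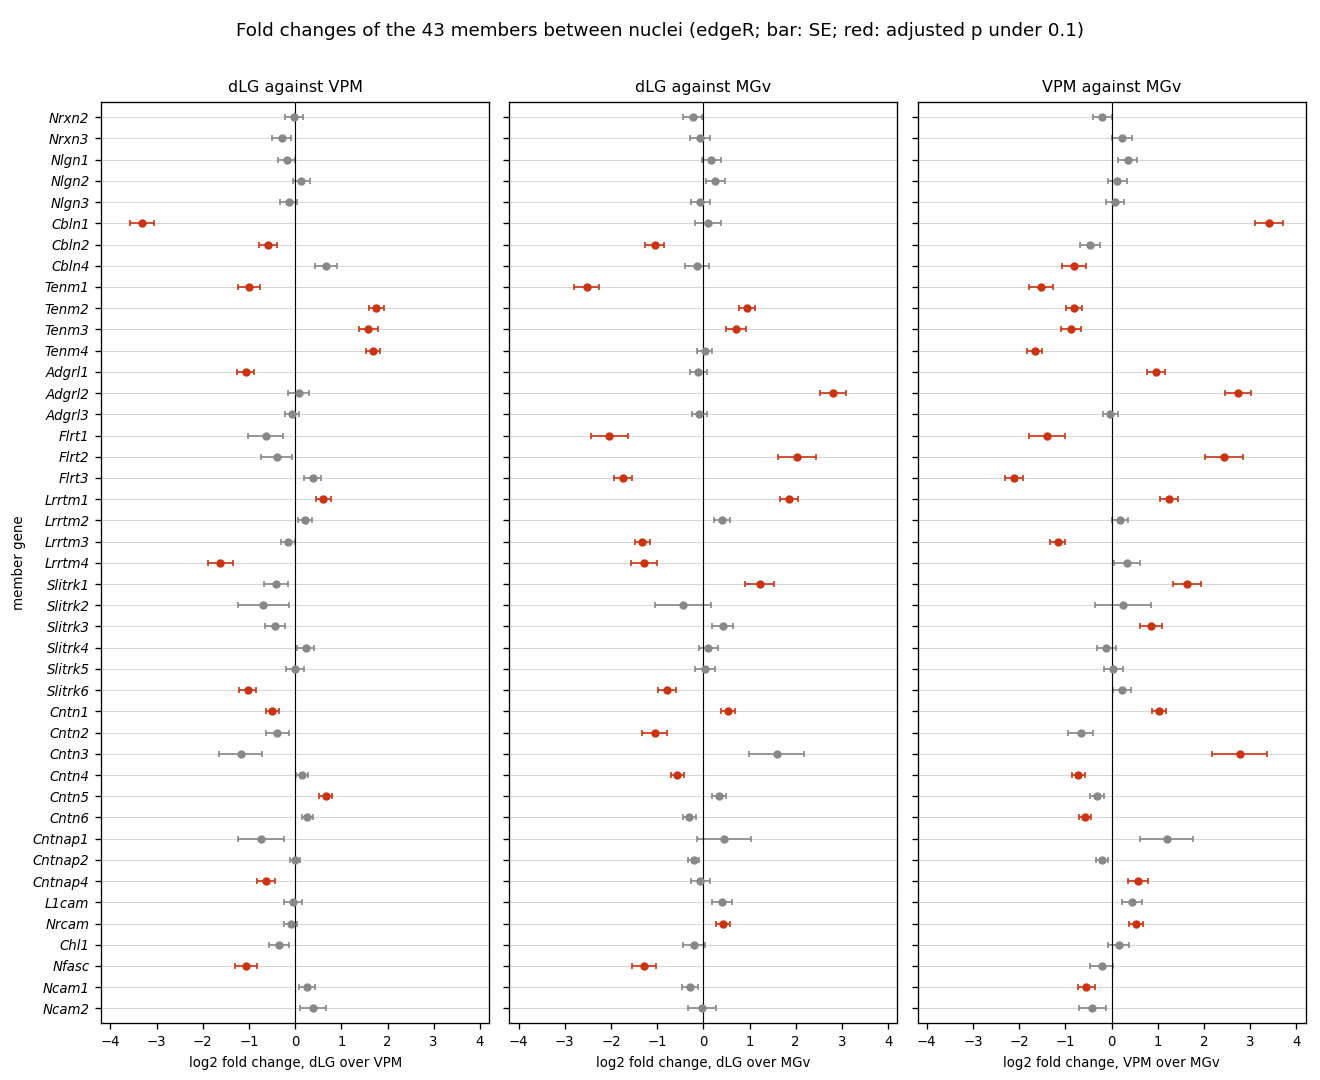
Log2 fold change (x axis) with SE of each of the 43 members in the 3 contrasts of the nuclei, positive values being higher in the nucleus named first and red marking an adjusted p under 0.1. Red points number 14, 18 and 22 from left to right, and the neurexins and neuroligins at the top are grey throughout.

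The neurexins and neuroligins among the members, the best known pair of trans-synaptic partners, were called in none of the 3 contrasts. Nrxn2 was present at 158 ± 23.0 CPM in dLG, 161 ± 28.5 in VPM and 185 ± 59.0 in MGv (SD), and Nrxn3 at 174 ± 22.9 CPM in dLG, 213 ± 69.5 in VPM and 182 ± 16.4 in MGv (SD). The largest fold change of these 2 genes was 0.29 ± 0.20 for Nrxn3, higher in VPM than in dLG (adjusted p = 0.477). Nrxn3 was lowest in VPM replicate 3, at 129.9 CPM, and without that library the difference was called (adjusted p = 0.07).

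Among the neuroligins, Nlgn1, which sits mainly at excitatory synapses, was at 79.1 ± 20.1 CPM in dLG, 89.5 ± 19.3 in VPM and 70.2 ± 5.28 in MGv (SD). Its difference between VPM and MGv was 0.35 ± 0.20 (adjusted p = 0.292), and without the 3 libraries of low Hspa8 it was 0.49 (adjusted p = 0.0929). Between VPM and dLG it was 0.18 ± 0.19 (adjusted p = 0.671), and without those libraries 0.46 (adjusted p = 0.0862). Both differences were called with limma voom (adjusted p = 0.0594 and 0.0826). Nlgn2, the neuroligin of inhibitory synapses, ranged from 10.3 to 16.8 CPM over the 11 libraries. Nlgn3 ranged from 39.1 to 77.3 CPM, but 41.2% of its exonic bases are shared with Gm21986 on the same strand, so its counts are uncertain. No pair of nuclei differed by more than 0.26 ± 0.20 for Nlgn2 or 0.14 ± 0.19 for Nlgn3.

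All 3 cerebellins among the members, secreted proteins of the C1q family that link neurexins to delta glutamate receptors, were called in at least 1 contrast. The test among the 3 nuclei, which called 24.2% of all genes tested, also called each of them, and their patterns differed. Cbln1 (ENSMUSG00000031654, chr8:87468405-87472609), best known from the parallel fibre synapses of the cerebellum, had 3.29, 3.09, 1.91 and 2.67 CPM in dLG, 29.4, 29.0, 33.1 and 17.7 in VPM, and 3.23, 2.37 and 2.04 in MGv. The 4 VPM libraries lay above the 7 others, which reached at most 3.29 CPM. VPM exceeded dLG by 3.31 ± 0.26 (adjusted p = 4.05e-06), a 9.94-fold difference, and MGv by 3.41 ± 0.30 (adjusted p = 8.75e-06). Cbln1 had the largest fold change of the 43 members in both of these contrasts.

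Cbln2 (ENSMUSG00000024647), on chromosome 18, had 113, 80.6, 109 and 115 CPM in dLG, 164, 177, 147 and 137 in VPM, and 165, 174 and 309 in MGv. The dLG libraries were the 4 lowest, and dLG fell below MGv by 1.05 ± 0.21 (adjusted p = 0.00395) and below VPM by 0.58 ± 0.19 (adjusted p = 0.0919). The second of these did not outlast the loss of single libraries, since 6 of them, when left out, brought the adjusted p to 0.128 to 0.229: each of the 4 of dLG and replicates 1 and 2 of VPM. Cbln4 was lower in VPM, with 66.5 ± 13.1 CPM in dLG, 41.5 ± 16.8 in VPM and 73.0 ± 10.9 in MGv (SD). VPM and MGv differed by 0.81 ± 0.25 (adjusted p = 0.0506), with overlapping libraries, and without the 3 libraries of low Hspa8 the adjusted p was 0.157. It was 0.104 to 0.155 without replicate 1 or 4 of VPM or replicate 1 or 2 of MGv. Between dLG and VPM the difference was 0.68 ± 0.24 (adjusted p = 0.112), which was called without VPM replicate 2 (adjusted p = 0.0112) or dLG replicate 2 (adjusted p = 0.0731).

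The 4 teneurins are very large transmembrane proteins that bind latrophilins across the cleft and also one another. All 4 differed between nuclei, and the test among the 3 nuclei called each, against 24.2% of all genes tested. Tenm1 was highest in MGv, and the others were lowest in VPM. Tenm1 (ENSMUSG00000016150, chrX:42527866-43429126) had 86.6, 127, 62.0 and 67.1 CPM in dLG, 225, 201, 111 and 151 in VPM, and 418, 511 and 554 in MGv. MGv was the highest nucleus in each library, and dLG and VPM touched at 1 point, where dLG replicate 2 lay above VPM replicate 3. MGv exceeded dLG by 2.53 ± 0.27 (adjusted p = 3.39e-05) and VPM by 1.52 ± 0.26 (adjusted p = 0.00163), and VPM exceeded dLG by 1.00 ± 0.24 (adjusted p = 0.0224).

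The most abundant teneurin in dLG, Tenm2 (ENSMUSG00000049336, chr11:36006656-37235964), had 479, 724, 445 and 576 CPM in dLG, 156, 169, 151 and 182 in VPM, and 339, 253 and 275 in MGv. Each dLG library was above each MGv library, and these were above each VPM library. The difference was 1.76 ± 0.16 between dLG and VPM (adjusted p = 1.72e-05), 0.94 ± 0.17 between dLG and MGv (adjusted p = 0.00252) and 0.81 ± 0.17 between MGv and VPM (adjusted p = 0.00595).

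Tenm3 (ENSMUSG00000031561, chr8:48227682-48843951), known for its part in the wiring of visual and hippocampal circuits, took the same order at a lower level. It had 89.4, 91.9, 79.1 and 93.4 CPM in dLG, 39.0, 31.3, 18.3 and 29.4 in VPM, and 44.9, 48.0 and 69.6 in MGv, with the nuclei apart from one another. dLG exceeded VPM by 1.58 ± 0.21 (adjusted p = 0.000319) and MGv by 0.71 ± 0.22 (adjusted p = 0.0558), and MGv exceeded VPM by 0.87 ± 0.22 (adjusted p = 0.0185). The difference between dLG and MGv was lost without replicate 1 or 4 of dLG or replicate 1 or 2 of MGv (adjusted p = 0.104 to 0.196), and that between MGv and VPM without MGv replicate 3 (adjusted p = 0.116).

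Tenm4 (ENSMUSG00000048078, chr7:96171246-96911093) had 109.8, 126, 83.1 and 113 CPM in dLG, 37.5, 29.1, 30.5 and 36.5 in VPM, and 103, 93.9 and 119.7 in MGv. VPM was again the lowest nucleus in each library, by 1.69 ± 0.15 against dLG (adjusted p = 1.67e-05) and 1.66 ± 0.16 against MGv (adjusted p = 2.05e-05). Between dLG and MGv it differed by 0.03 ± 0.16 (adjusted p = 0.939). Summed over the 4 genes, teneurins came to 838 ± 171 CPM in dLG, 399 ± 64.0 CPM in VPM and 943 ± 64.9 CPM in MGv (SD). These sums are not scaled by length, and Tenm1 has 17747 bases of exon against 11474 for Tenm2, so they do not rank dLG against MGv. Divided by kilobases, Tenm2 had a mean of 48.4 CPM in dLG and 25.2 in MGv, and Tenm1 4.83 and 27.8. Per length, Tenm2 made up 72 ± 2.27% of the teneurin level in dLG (SD), 51.0 ± 6.87% in VPM and 39.8 ± 6.50% in MGv, while the share of Tenm1 was 7.12 ± 1.36%, 33.4 ± 5.92% and 43.9 ± 5.42% in the same order.

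**Figure D3:**
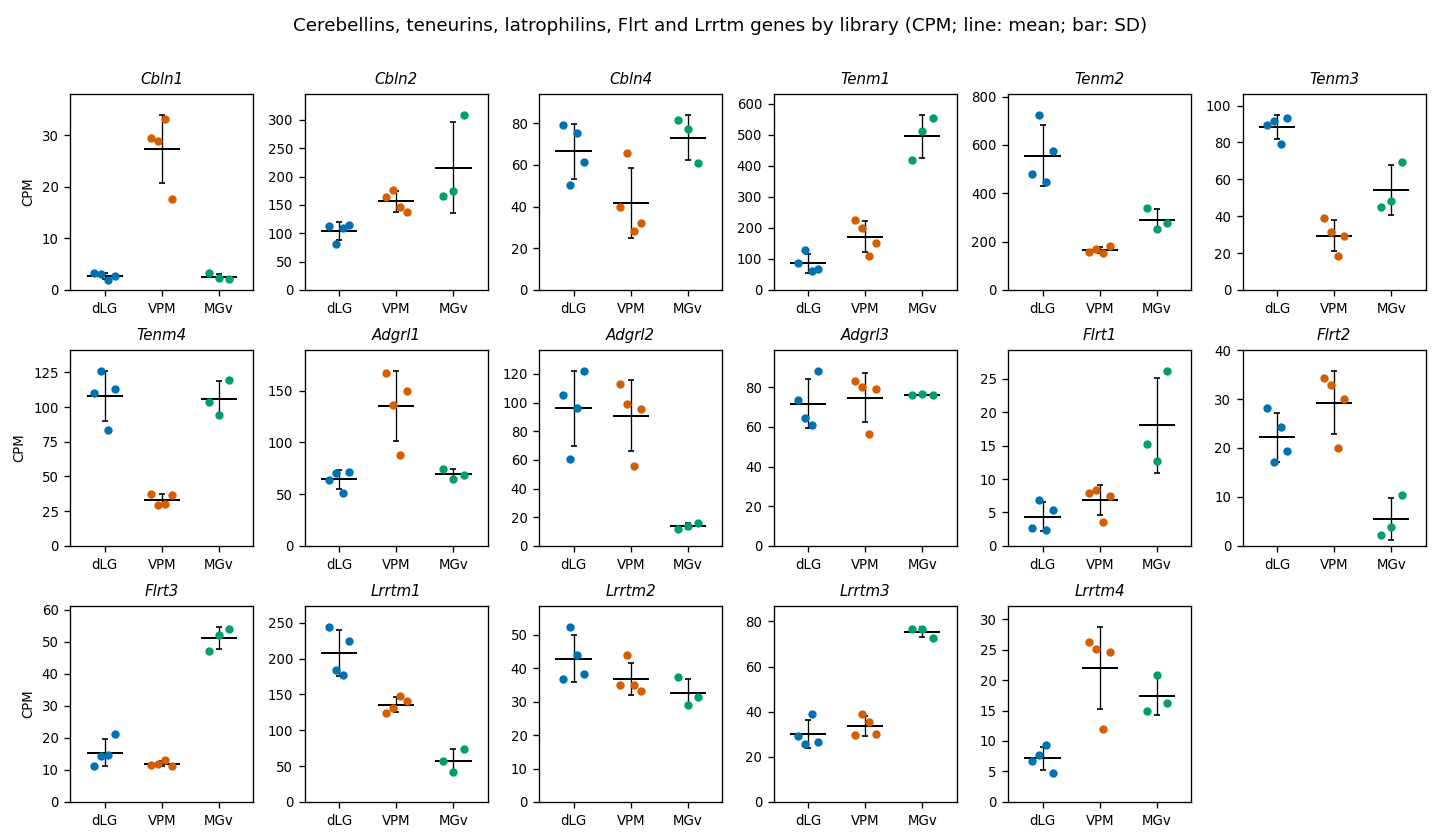
CPM of the 17 cerebellin, teneurin, latrophilin, Flrt and Lrrtm genes in each library (points), with the mean (line) and SD (bar) of each nucleus. Cbln1 stands out in VPM, Tenm1, Flrt1, Flrt3 and Lrrtm3 in MGv, Tenm2 and Lrrtm1 in dLG, and Adgrl2 and Flrt2 are low in MGv.

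Of the latrophilins, adhesion G protein-coupled receptors first found as targets of a spider toxin, 2 of 3 differed between nuclei. Both were called by the test among the 3 nuclei, against 24.2% of all genes tested. Adgrl1 (ENSMUSG00000013033, chr8:83900105-83941954) had 63.3, 70.8, 51.5 and 71.3 CPM in dLG, 167, 136, 87.7 and 150.0 in VPM, and 74.0, 64.6 and 68.8 in MGv. The VPM libraries were the 4 highest, by 1.07 ± 0.18 over dLG (adjusted p = 0.00222) and 0.97 ± 0.20 over MGv (adjusted p = 0.00563).

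Adgrl2 (ENSMUSG00000028184, chr3:148815583-148990555) had 106, 60.5, 96.0 and 122 CPM in dLG, 113, 99.1, 55.9 and 95.7 in VPM, and 11.6, 13.7 and 15.7 in MGv. The 3 MGv libraries were far below the 8 others, whose lowest value was 55.9 CPM, and dLG and VPM overlapped. dLG exceeded MGv by 2.81 ± 0.28 (adjusted p = 2.16e-05), or 7.02-fold, and VPM exceeded MGv by 2.73 ± 0.28 (adjusted p = 2.87e-05). In contrast to these genes, Adgrl3 stayed between 56.6 and 88.1 CPM in the 11 libraries, its largest difference being 0.09 ± 0.16 between dLG and MGv (adjusted p = 0.802). As a share of the length-scaled latrophilin level, Adgrl2 made up 36.7 ± 6.96% in dLG, 24.2 ± 1.29% in VPM and 7.26 ± 1.18% in MGv (SD). Adgrl1 held the largest mean share in each nucleus, with 41.3 ± 6.60% in dLG, 59.6 ± 1.41% in VPM and 60.4 ± 2.09% in MGv, although in dLG the libraries of Adgrl1 and Adgrl2 overlapped.

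The 3 Flrt genes encode leucine-rich repeat proteins that bind latrophilins for adhesion and Unc5 receptors for repulsion. All 3 differed between MGv and both other nuclei, and the test among the 3 nuclei called each, against 24.2% of all genes tested. Flrt1 (ENSMUSG00000047787, chr19:7092001-7105729) had 2.74, 6.87, 2.45 and 5.39 CPM in dLG, 7.97, 8.40, 3.54 and 7.42 in VPM, and 15.2, 12.7 and 26.1 in MGv. MGv was the highest in each library, by 2.03 ± 0.40 over dLG (adjusted p = 0.00373) and 1.39 ± 0.39 over VPM (adjusted p = 0.0308). The difference from VPM was lost without MGv replicate 3 (adjusted p = 0.174).

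Flrt2 (ENSMUSG00000047414, chr12:95692226-95785215) took the opposite direction, with 28.1, 17.1, 24.3 and 19.3 CPM in dLG, 34.3, 32.8, 20.0 and 30.0 in VPM, and 2.25, 3.95 and 10.3 in MGv. The MGv libraries were the 3 lowest, and MGv replicate 3 stood above the other two. dLG exceeded MGv by 2.03 ± 0.40 (adjusted p = 0.0043) and VPM exceeded it by 2.43 ± 0.41 (adjusted p = 0.0015). Without MGv replicate 3 these differences were 2.84 (adjusted p = 0.000317) and 3.25 (adjusted p = 0.00014), and with limma voom that of VPM was 3.08 (adjusted p = 6.19e-05).

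Flrt3 (ENSMUSG00000051379, chr2:140650914-140671469) was tightly grouped, with 11.2, 14.5, 14.6 and 21.2 CPM in dLG, 11.5, 11.7, 13 and 11.2 in VPM, and 47.3, 52.2 and 53.9 in MGv. The lowest MGv library, at 47.3 CPM, was far above the highest of the 8 others, at 21.2 CPM. MGv exceeded dLG by 1.73 ± 0.20 (adjusted p = 6.33e-05) and VPM by 2.11 ± 0.20 (adjusted p = 1.47e-05). Between dLG and VPM no Flrt gene was called, with differences of 0.64 ± 0.37 for Flrt1, 0.40 ± 0.34 for Flrt2 and 0.38 ± 0.18 for Flrt3. Without the 3 libraries of low Hspa8, VPM exceeded dLG by 1.15 for Flrt1 (adjusted p = 0.0574). With limma voom this contrast was called for Flrt1 (adjusted p = 0.021) and Flrt2 (adjusted p = 0.0689). Of the length-scaled Flrt level, Flrt2 made up 42.9 ± 11.6% in dLG, 50.8 ± 4.57% in VPM and 4.68 ± 2.89% in MGv (SD), and Flrt3 made up 46.1 ± 8.24%, 33.8 ± 7.92% and 74.3 ± 7.58%.

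The Lrrtm genes encode postsynaptic leucine-rich repeat proteins of excitatory synapses, of which Lrrtm1 and Lrrtm2 bind neurexins and Lrrtm4 also binds heparan sulfate chains. Lrrtm1 (ENSMUSG00000060780, chr6:77242689-77257791) had 244, 184, 177 and 225 CPM in dLG, 124, 130.4, 148 and 141 in VPM, and 57.1, 41.7 and 73.7 in MGv. The 3 nuclei lay apart from one another, with dLG highest and MGv lowest. The difference was 1.85 ± 0.19 between dLG and MGv (adjusted p = 3.02e-05), 1.24 ± 0.19 between VPM and MGv (adjusted p = 0.000624) and 0.61 ± 0.17 between dLG and VPM (adjusted p = 0.0387). The last of these was lost without replicate 1 or 4 of dLG or replicate 1 or 2 of VPM (adjusted p = 0.108 to 0.142).

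Lrrtm3 (ENSMUSG00000042846, chr10:63928472-64090277) had 29.2, 25.7, 39.1 and 26.7 CPM in dLG, 29.6, 38.8, 35.6 and 30.1 in VPM, and 76.8, 76.4 and 72.8 in MGv. MGv was the highest in each library, by 1.32 ± 0.17 over dLG (adjusted p = 0.000146) and 1.17 ± 0.17 over VPM (adjusted p = 0.000386), while dLG and VPM overlapped. In contrast to Lrrtm1 and Lrrtm3, Lrrtm2 ranged from 29.1 to 52.4 CPM and was called in no contrast, its largest difference being 0.40 ± 0.17 between dLG and MGv (adjusted p = 0.164).

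Lrrtm4 (ENSMUSG00000052581, chr6:80018877-80810143) had 6.76, 7.73, 9.26 and 4.82 CPM in dLG, 26.2, 25.1, 11.9 and 24.6 in VPM, and 15.0, 20.9 and 16.2 in MGv. The dLG libraries were the 4 lowest, and VPM replicate 3 was far below the other VPM libraries. VPM exceeded dLG by 1.62 ± 0.27 (adjusted p = 0.00193), and MGv exceeded dLG by 1.28 ± 0.28 (adjusted p = 0.00861). Of the length-scaled Lrrtm level, Lrrtm1 made up 81.3 ± 4.26% in dLG, 71.8 ± 3.32% in VPM and 41.7 ± 7.46% in MGv (SD), and Lrrtm3 made up 8.58 ± 2.33%, 12.6 ± 1.34% and 39.8 ± 5.12%. Summed over the 4 genes, the counts, not scaled by length, came to 288 ± 22.8 CPM in dLG, 228 ± 9.93 in VPM and 183 ± 13.3 in MGv (SD).

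**Figure D4:**
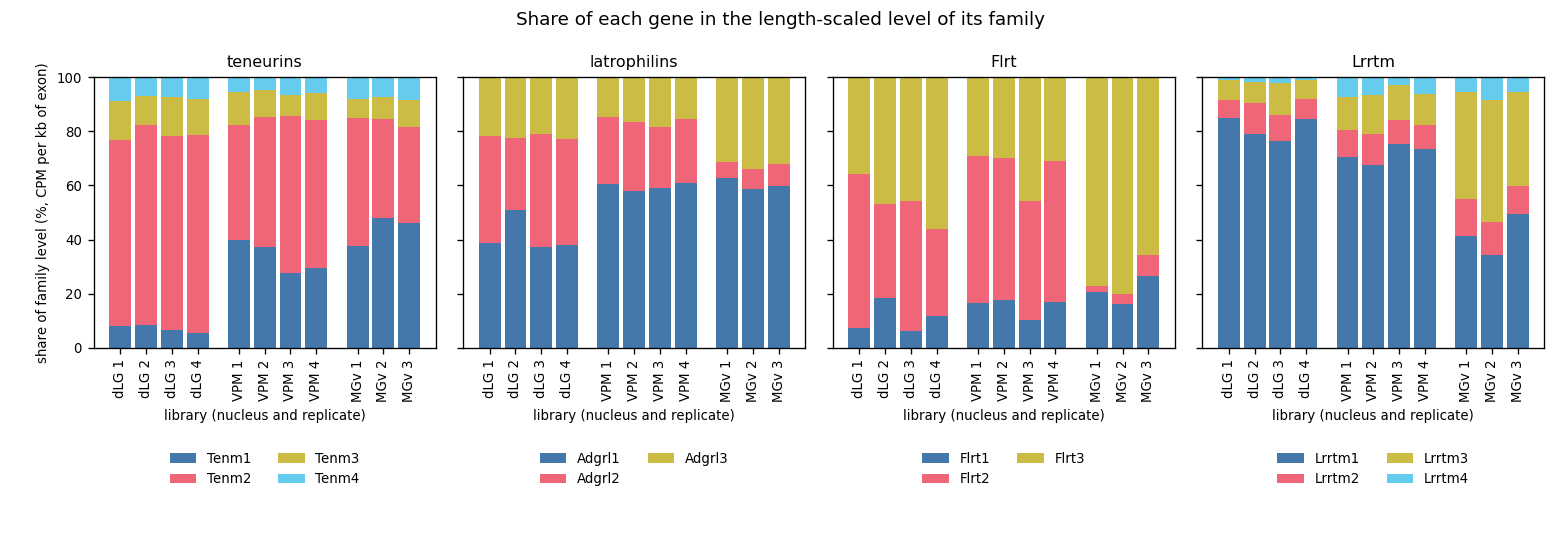
Share of each gene (percent of the summed CPM per kb of exon) in the teneurin, latrophilin, Flrt and Lrrtm families, with 1 bar per library. Each bar of MGv holds a larger part of Tenm1, Flrt3 and Lrrtm3 and a smaller part of Adgrl2, Flrt2 and Lrrtm1 than the bars of dLG.

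Because 9 of the members described in full differed in MGv from both other nuclei, 4 higher and 5 lower, the sequence before their start was examined. RefSeq gives a promoter for 33 of the 43 members, and for 5 of these 9 its start was within 100 bases of the start in the annotation used here. The 250 bases before the start are shown for these 5 (build GRCm38.p6, 5′ to 3′ on the strand of the gene), with every match to 1 of 6 motifs in capitals.
Flrt3, chr2:140671477-140671726, minus strand: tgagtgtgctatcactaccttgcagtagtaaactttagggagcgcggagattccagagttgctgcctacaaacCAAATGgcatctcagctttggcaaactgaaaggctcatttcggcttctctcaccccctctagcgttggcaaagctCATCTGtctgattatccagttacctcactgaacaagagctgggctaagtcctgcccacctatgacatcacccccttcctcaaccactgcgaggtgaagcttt
Lrrtm3, chr10:64090256-64090505, minus strand: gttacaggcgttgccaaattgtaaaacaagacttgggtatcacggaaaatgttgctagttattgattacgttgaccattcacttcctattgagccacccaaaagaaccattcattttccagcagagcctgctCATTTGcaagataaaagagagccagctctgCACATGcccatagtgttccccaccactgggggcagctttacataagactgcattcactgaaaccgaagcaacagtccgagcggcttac
Flrt2, chr12:95691976-95692225, plus strand: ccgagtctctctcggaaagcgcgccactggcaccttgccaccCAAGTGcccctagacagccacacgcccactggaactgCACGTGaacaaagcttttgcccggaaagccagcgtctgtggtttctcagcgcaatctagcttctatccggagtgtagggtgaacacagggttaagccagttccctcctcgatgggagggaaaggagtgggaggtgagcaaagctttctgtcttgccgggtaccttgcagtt
Slitrk1, chr14:108914240-108914489, minus strand: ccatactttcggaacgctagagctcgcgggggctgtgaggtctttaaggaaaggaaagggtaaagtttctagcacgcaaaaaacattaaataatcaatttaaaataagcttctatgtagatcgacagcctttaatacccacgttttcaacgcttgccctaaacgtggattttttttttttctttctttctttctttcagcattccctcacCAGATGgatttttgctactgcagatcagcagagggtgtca
Cntn1, chr15:92050915-92051164, plus strand: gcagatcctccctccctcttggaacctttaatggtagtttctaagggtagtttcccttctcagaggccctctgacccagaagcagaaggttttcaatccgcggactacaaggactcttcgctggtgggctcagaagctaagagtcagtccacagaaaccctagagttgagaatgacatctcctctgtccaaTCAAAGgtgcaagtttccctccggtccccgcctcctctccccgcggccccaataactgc
The motifs, searched on both strands, were the E-box CANNTG, the TCF/LEF core CTTTGA, the nuclear receptor half-site AGGTCA, the homeodomain site TAATTA, the GC box GGGCGG and the TATA box TATAAA, and no matches overlapped in these windows. The E-box was found 2 times before Flrt3, 2 times before Lrrtm3, 2 times before Flrt2 and 1 time before Slitrk1, and 66.2% of the 32851 promoters of the same length hold it. The TCF/LEF core, which 13.8% of promoters hold, had 1 match, before Cntn1, on the opposite strand. The other 4 motifs had 0 matches in the 5 windows, where 14% (half-site), 4.84% (homeodomain site), 32.7% (GC box) and 12.4% (TATA box) of all promoters hold them. Flrt3 and Lrrtm3, higher in MGv, had a GC content of 50.0% and 46.0%, and Flrt2, Slitrk1 and Cntn1, lower in MGv, had 57.2%, 40.4% and 53.6%, where the median of all promoters was 52.4%.

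The Slitrk genes encode postsynaptic proteins that bind receptor phosphatases of the LAR family on the axon. Between nuclei 3 of the 6 differed, all of them called by the test among the 3 nuclei, against 24.2% of all genes tested. Slitrk1 (ENSMUSG00000075478, chr14:108908800-108914158) had 21.2, 18.4, 22.4 and 29.0 CPM in dLG, 35.6, 40.4, 16.3 and 29.0 in VPM, and 9.17, 6.93 and 13.3 in MGv. The MGv libraries were the 3 lowest, below dLG by 1.22 ± 0.31 (adjusted p = 0.0181) and below VPM by 1.63 ± 0.31 (adjusted p = 0.0034).

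Slitrk6 (ENSMUSG00000045871, chr14:110748580-110755149), which is also known from the inner ear, had 18, 25.6, 13.8 and 16 CPM in dLG, 36.0, 41.1, 34.3 and 37.7 in VPM, and 32.2, 34.8 and 28.3 in MGv. Here the dLG libraries were the 4 lowest, by 1.02 ± 0.18 against VPM (adjusted p = 0.00355) and 0.79 ± 0.20 against MGv (adjusted p = 0.017). Slitrk3, an organizer of inhibitory synapses, was at 29.2 ± 4.87 CPM in dLG, 39.3 ± 9.25 in VPM and 21.9 ± 6.31 in MGv (SD), and VPM exceeded MGv by 0.85 ± 0.23 (adjusted p = 0.0292) although the libraries overlapped. This call was lost without MGv replicate 1 (adjusted p = 0.119), and without VPM replicate 3 VPM was also called above dLG (adjusted p = 0.0984).

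Slitrk4 ranged from 16.6 to 28.0 CPM and Slitrk5 from 11.5 to 19.7 CPM, and neither was called. The largest difference was 0.23 ± 0.19 for Slitrk4, between dLG and VPM (adjusted p = 0.566), and 0.04 ± 0.21 for Slitrk5, between VPM and MGv (adjusted p = 0.930). Slitrk2 was the lowest of the 43 members per length, at 0.527 to 3.11 CPM. Its differences, of up to 0.69 ± 0.55, had the widest errors of the family (adjusted p = 0.556).

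All 6 contactins, immunoglobulin proteins held to the membrane by a lipid anchor, were called in at least 1 contrast. The test among the 3 nuclei also called all 6, against 24.2% of all genes tested. Cntn1 (ENSMUSG00000055022, chr15:92051165-92341967), which joins Caspr next to the nodes of myelinated axons, had 213, 220.3, 161 and 179 CPM in dLG, 316, 298, 224 and 249 in VPM, and 124, 132 and 143 in MGv. The nuclei lay apart, with VPM highest and MGv lowest, and the difference was 1.03 ± 0.16 between VPM and MGv (adjusted p = 0.000716), 0.54 ± 0.16 between dLG and MGv (adjusted p = 0.0374) and 0.49 ± 0.14 between VPM and dLG (adjusted p = 0.0526). The difference between dLG and MGv was lost without replicate 1 or 2 of MGv (adjusted p = 0.108 to 0.130), and that between VPM and dLG without replicate 3 or 4 of dLG or replicate 1 or 2 of VPM (adjusted p = 0.140 to 0.155).

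Cntn2 (ENSMUSG00000053024, chr1:132509427-132543256), also called TAG-1 and known from growing axons, had 9.68, 16.8, 10.5 and 10.1 CPM in dLG, 18.4, 18.1, 8.93 and 16 in VPM, and 19.2, 24.8 and 29.3 in MGv. The 3 MGv libraries were the highest, and dLG replicate 2 and VPM replicate 3 lay far from the rest of their nuclei in opposite directions. MGv exceeded dLG by 1.05 ± 0.27 (adjusted p = 0.0215), which was lost without MGv replicate 3 (adjusted p = 0.106). Between MGv and VPM the difference was 0.67 ± 0.27 (adjusted p = 0.128), and without dLG replicate 2, a library of neither nucleus, the adjusted p was 0.0973. Without the 3 libraries of low Hspa8 it was 0.0381, and VPM then exceeded dLG by 0.79 (adjusted p = 0.01).

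Cntn4, Cntn5 and Cntn6 are close relatives with smaller differences. Cntn4 was at 52.7 ± 7.24 CPM in dLG, 47.4 ± 5.13 in VPM and 78.0 ± 6.21 in MGv (SD), and MGv exceeded dLG by 0.56 ± 0.15 (adjusted p = 0.0206) and VPM by 0.72 ± 0.15 (adjusted p = 0.00529), with the MGv libraries above all others. Cntn5 was at 45.0 ± 6.96 CPM in dLG, 28.5 ± 2.06 in VPM and 35.5 ± 3.39 in MGv (SD), with the VPM libraries below all others, and was called between dLG and VPM alone (0.66 ± 0.14, adjusted p = 0.0111). The VPM libraries of Cntn6 were also the lowest, at 74.2 ± 7.17 CPM in dLG, 61.7 ± 2.06 in VPM and 91.4 ± 12.1 in MGv (SD), and Cntn6 was called between MGv and VPM (0.57 ± 0.13, adjusted p = 0.0116). Its difference between dLG and VPM was 0.27 ± 0.12 (adjusted p = 0.237).

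Cntn3 was near the floor of detection in MGv, where its 3 libraries had 0.376, 0.527 and 0.194 CPM and 3 counts correspond to 0.228 to 0.295 CPM. The mean was 1.14 ± 0.729 CPM for dLG and 2.55 ± 0.630 CPM for VPM (SD). VPM exceeded MGv by 2.77 ± 0.60 (adjusted p = 0.00776). The difference between dLG and VPM was 1.18 ± 0.47 (adjusted p = 0.164), and without dLG replicate 1, the highest dLG library, the adjusted p was 0.0553. That between dLG and MGv was 1.59 ± 0.60 (adjusted p = 0.110), and without dLG replicate 2 or VPM replicate 3 the adjusted p was 0.0539 to 0.0962. Per length, Cntn1 made up 41.4 ± 2.98% of the contactin level in dLG, 54.9 ± 3.95% in VPM and 29.5 ± 2.01% in MGv (SD). It was the largest share in dLG and VPM, and in MGv Cntn6, with 29.4 ± 3.48%, could not be told from it.

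Contactin-associated proteins are neurexin-like partners of the contactins. Cntnap2, the most abundant of the 3, had the smallest ratio of the highest to the lowest library among the members, with a range of 159 to 229 CPM, and was called in no contrast, with a largest difference of 0.21 ± 0.13 between dLG and MGv (adjusted p = 0.346). Cntnap4 was at 19.2 ± 3.26 CPM in dLG, 29.9 ± 4.83 in VPM and 20.1 ± 4.84 in MGv (SD), higher in VPM than in dLG by 0.64 ± 0.19 (adjusted p = 0.0636) and than in MGv by 0.57 ± 0.21 (adjusted p = 0.0957). Both calls were fragile: leaving out any of 6 libraries ended the first (adjusted p = 0.123 to 0.171; replicates 1, 3 and 4 of dLG and 1, 2 and 4 of VPM), and any of 8 ended the second (adjusted p = 0.102 to 0.308; the same 6 and replicates 2 and 3 of MGv). Cntnap1, the Caspr of the paranode, was at 0.601 to 4.26 CPM. Its difference between VPM and MGv was 1.19 ± 0.58 (adjusted p = 0.203), and without VPM replicate 3 the adjusted p was 0.0563.

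In the L1 family, Nfasc and Nrcam were called and L1cam and Chl1 were not. Nfasc (ENSMUSG00000026442, chr1:132564690-132741797), neurofascin, which gathers at the axon initial segment and the nodes, had 17.1, 31.2, 13.3 and 21.5 CPM in dLG, 48.2, 46.7, 29.2 and 50.4 in VPM, and 55.1, 51.3 and 45.6 in MGv. dLG was the lowest nucleus, with 1 overlap where dLG replicate 2 lay above VPM replicate 3. VPM exceeded dLG by 1.07 ± 0.24 (adjusted p = 0.0144), and MGv exceeded dLG by 1.28 ± 0.26 (adjusted p = 0.00441).

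Nrcam was at 173 ± 14.0 CPM in dLG, 185 ± 28.7 in VPM and 129 ± 16.4 in MGv (SD), lower in MGv than in VPM by 0.53 ± 0.15 (adjusted p = 0.0343) and than in dLG by 0.43 ± 0.15 (adjusted p = 0.0869). The first call was lost without MGv replicate 2 (adjusted p = 0.131), and the second without any of 8 libraries (adjusted p = 0.103 to 0.275), namely replicates 1, 2 and 4 of dLG, 1, 2 and 4 of VPM and 1 and 2 of MGv. L1cam, the founding member and a promoter of axon growth, was at 326 ± 55.8 CPM in dLG, 336 ± 88.0 in VPM and 248 ± 47.0 in MGv (SD). Its differences from MGv were 0.44 ± 0.22 for VPM (adjusted p = 0.215) and 0.40 ± 0.22 for dLG (adjusted p = 0.300). VPM replicate 3 had 205 CPM of L1cam where the other VPM libraries had at least 371, and without it both differences were called (adjusted p = 0.0231 and 0.0992). Chl1, which guides thalamic axons to their cortical areas, ranged from 306 to 663 CPM and differed by at most 0.35 ± 0.21, between VPM and dLG (adjusted p = 0.402).

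Ncam1 was at 768 ± 76.6 CPM in dLG, 643 ± 113 in VPM and 940.2 ± 247 in MGv (SD). MGv exceeded VPM by 0.55 ± 0.18 (adjusted p = 0.0621), with the libraries apart, but MGv replicate 3, at 1226 CPM, decided the call, since without it the adjusted p was 0.327. Ncam2 ranged from 28.9 to 91.1 CPM, with its highest value also in MGv replicate 3, and its largest difference was 0.42 ± 0.30 between MGv and VPM (adjusted p = 0.404).

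**Figure D5:**
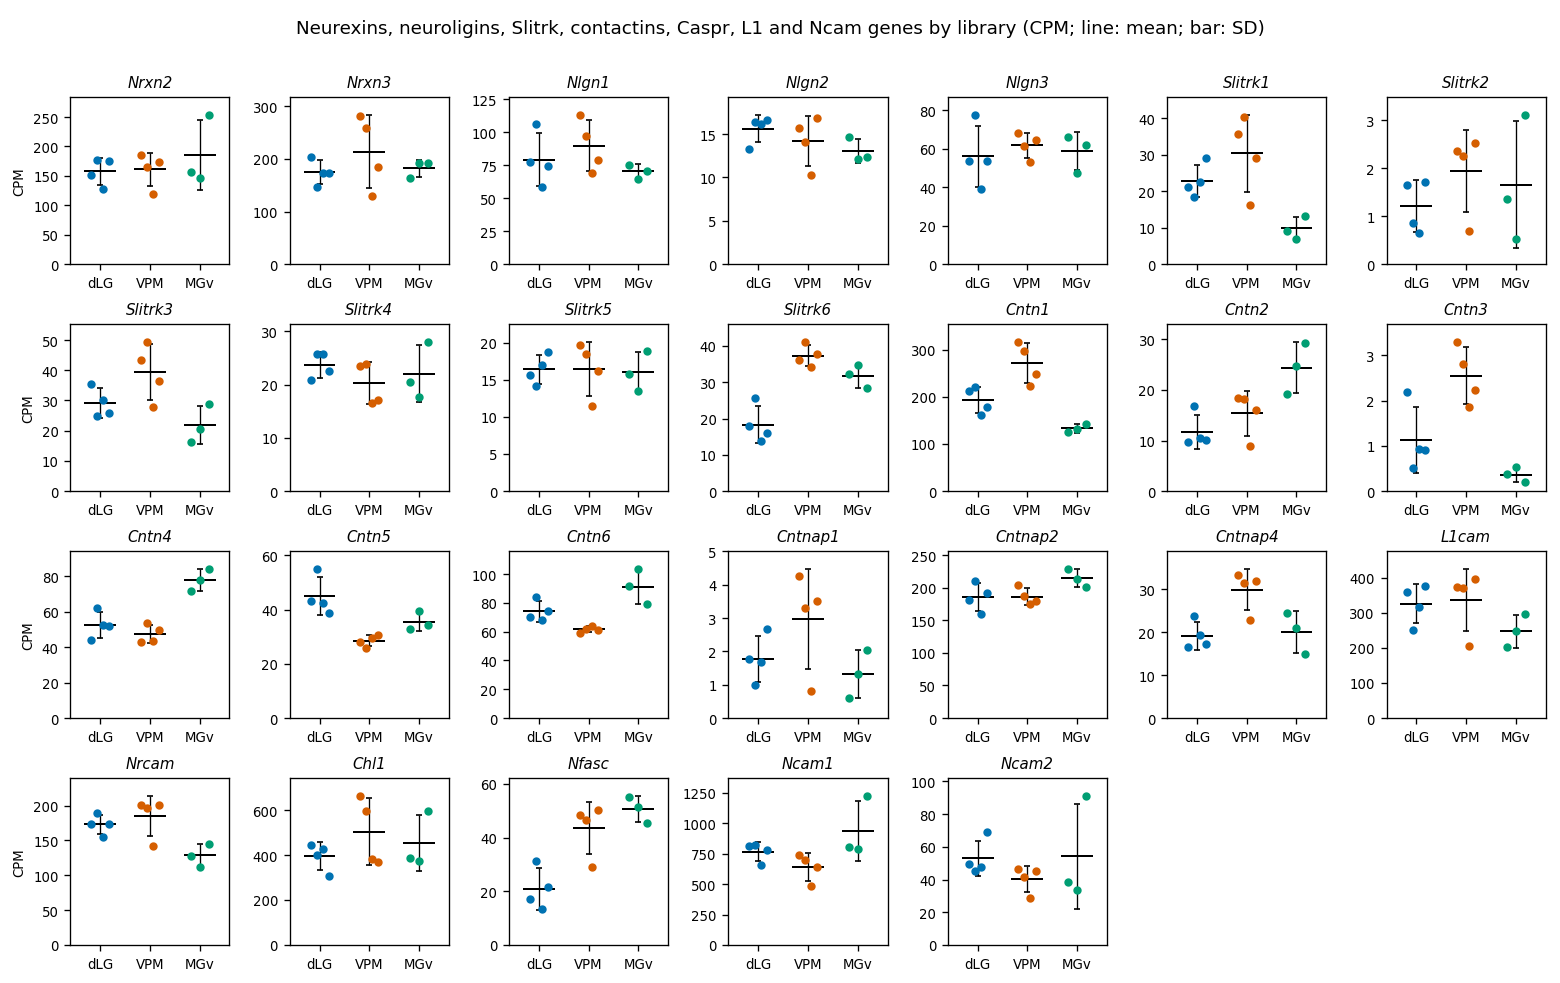
CPM of the 26 neurexin, neuroligin, Slitrk, contactin, Caspr, L1 and Ncam genes in each library (points), with the mean (line) and SD (bar) of each nucleus. Slitrk1 and Cntn1 are lowest in MGv, Slitrk6 and Nfasc are low in dLG, Cntn4 is highest in MGv, and Nrxn2, Nlgn3 and Cntnap2 overlap between the nuclei.

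Read by nucleus, 3 members were called higher in dLG than in both other nuclei (Tenm2, Tenm3 and Lrrtm1), against 2.04% of all genes tested, and 5 lower (Cbln2, Tenm1, Lrrtm4, Slitrk6 and Nfasc), against 2.18%. In VPM, 4 members were higher than in both others (Cbln1, Adgrl1, Cntn1 and Cntnap4), against 2.41%, and 3 lower (Tenm2, Tenm3 and Tenm4), against 1.97%. In MGv, 5 members were higher (Tenm1, Flrt1, Flrt3, Lrrtm3 and Cntn4), against 3.66%, and 6 lower (Adgrl2, Flrt2, Lrrtm1, Slitrk1, Cntn1 and Nrcam), against 5.22%. Among partners, MGv thus had the latrophilin Adgrl2 on its lower list and the teneurin Tenm1 on its higher list. The Flrt genes went both ways in MGv, with Flrt2 lower and Flrt1 and Flrt3 higher. VPM had Adgrl1 on its higher list and 3 teneurins on its lower list. In dLG, Tenm2 and Tenm3 were on the higher list, Tenm1 was on the lower list, and no latrophilin was on either.

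Of 46 other genes of trans-synaptic adhesion, 42 passed the count filter, and 12, 17 and 15 of them were called in the contrast of dLG with VPM, of dLG with MGv and of VPM with MGv, against 10.7%, 16.1% and 19% of all genes tested. Cadm1, a homophilic immunoglobulin protein of the SynCAM family, had 1238, 1502, 1306 and 1341 CPM in dLG, 263, 284, 275 and 298 in VPM, and 769, 687 and 853 in MGv. dLG exceeded VPM by 2.26 ± 0.12 (adjusted p = 1.03e-07), and the MGv libraries lay between. In the IgLON group, Opcml had 103, 120.1, 87.6 and 99 CPM in dLG, 56.7, 42.7, 54.0 and 51.8 in VPM, and 17.4, 22.1 and 24.2 in MGv, and dLG exceeded MGv by 2.27 ± 0.17 (adjusted p = 3.24e-06). Lrrc4c, the netrin-G1 ligand found on dendrites, had 60.6, 57.6, 55.1 and 76.9 CPM in dLG, 50.5, 48.7, 45.7 and 66.8 in VPM, and 12.3, 17.6 and 13 in MGv, and dLG exceeded MGv by 2.13 ± 0.20 (adjusted p = 1.22e-05). Its partner, Ntng1, which is found on thalamic axons, was at 831 ± 77.3 CPM in dLG, 901 ± 128 in VPM and 928 ± 1.96 in MGv (SD) and was not called.

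Among the other partners, Clstn1, a calsyntenin, had 36.8, 97, 34.6 and 49.7 CPM in dLG, 254, 179, 136 and 196 in VPM, and 268, 142 and 218 in MGv, with MGv above dLG by 1.94 ± 0.33 (adjusted p = 0.0015). At low levels, Sdk2, a sidekick protein of retinal lamina choice, had 0.731, 1.07, 1.04 and 0.764 CPM in dLG, 5.28, 6.15, 1.98 and 6.42 in VPM, and 6.09, 8.60 and 8.07 in MGv, with MGv above dLG by 3.06 ± 0.39 (adjusted p = 0.000146). Nptx2, a neuronal pentraxin, had 0.670, 0.730, 0.163 and 0.859 CPM in dLG, 2.92, 1.56, 1.92 and 3.76 in VPM, and 5.86, 4.21 and 3.30 in MGv, with MGv above dLG by 2.86 ± 0.49 (adjusted p = 0.00163). For each of these 3 genes the dLG libraries were the 4 lowest. The Flrt receptor Unc5b had 0.426, 0.344, 0.0545 and 0 CPM in dLG, 1.34, 1.43, 2.17 and 2.04 in VPM, and 0.0751, 0.351 and 0 in MGv, with VPM above MGv by 3.55 ± 1.02 (adjusted p = 0.0345). Its MGv libraries lie near the floor of 3 counts, and the size of that fold depends on the handling of counts near 0. Il1rap, which binds receptor phosphatases across the cleft, had 1.10, 0.301, 0.109 and 0.143 CPM in dLG, 0.973, 0.563, 0.248 and 1.47 in VPM, and 1.58, 2.46 and 1.85 in MGv, with MGv above dLG by 2.27 ± 0.76 (adjusted p = 0.0724). It had 2 dLG libraries at or below 3 counts, and the test among the 3 nuclei did not call it (adjusted p = 0.113). The 3 receptor phosphatases that bind Slitrk proteins, Ptprf, Ptprs and Ptprd, were called in no contrast.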

How the data were processed

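RNA was measured in sorted thalamic neurons of newborn mice, in 4 dLG, 4 VPM and 3 MGv libraries, each from 4 pooled brains. The authors made the deposited counts, raw reads per Ensembl gene, from 50-base single reads of SMARTer v4 cDNA. For the library step the labels name Nextera XT and the study's methods name NEBNext Ultra DNA, and neither marks strand. The submitters' processing notes name FastQC 0.11.7, Trim Galore 0.6.1, cutadapt 2.3, STAR 2.7.0d, SAMtools 1.9, featureCounts of Subread 1.6.4 and the mm10 build. How reads of overlapping genes and reads mapped to several places were counted was not given in the sources used here.

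Symbols and positions came from GENCODE M21, which held 54723 of the 54752 identifiers, and promoters from RefSeq. Of 33170 genes with a count, 15907 passed filterByExpr. TMM normalization (trimmed mean of M values) and edgeR 4.0.16's quasi-likelihood test were fitted to all 11 libraries with nucleus as the only term (R 4.3.3), a call needed a p under 0.1 after Benjamini-Hochberg adjustment, and the biological coefficient of variation was 28.2%. Depth was 10.2 to 23.6 M counts, so that 3 counts were 0.127 to 0.295 CPM, a floor that covers counting error only. On simulated counts of the 15907 genes, 44% of 100 genes changed 2-fold and 87% of 100 changed 4-fold were called between dLG and VPM, and 37% and 82% between dLG and MGv. These were the only genes changed, drawn at random from all genes tested. In the data 1704 and 2562 genes were called in these contrasts, so the adjusted threshold was stricter in the simulation. The members also had a higher median, 57.7 CPM against 14.1 CPM, so these rates are not those of the members.

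The members and the lists of related and marker genes were chosen with earlier results of these data known, so no p-value was computed for any list. Every member is accounted for. Values in each library were given for members called in a contrast with a log2 fold change of at least 1 and 5 CPM or more on average in the higher nucleus, up to 24, which 19 met, and for at most 8 related genes, the called gene with the largest fold change of its list. Alternatives were DESeq2 1.42.0, limma 3.58.1 with voom and quality weights, DESeq2 size factors, other count filters and thresholds, counts thinned to the smallest library, fits with a replicate term or of the nuclei compared alone, and libraries left out. Figures were drawn with matplotlib 3.10.9.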

Additional observations from a re-analysis of the deposited data

Results flagged for a closer look

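In groups of 4 libraries, the gap between an extreme library and its nearest neighbour was compared with the range of the group by Dixon's test. Chance passes about 1 in 20 groups on average. Of the 86 groups of the 43 members in dLG and VPM, 12 passed, MGv with 3 libraries not being tested. The groups come from the same libraries and are not independent, and the share over all genes tested is not given here. The 12 are therefore not read as a trait of the members. In 9 of the 12 the library that stood apart was VPM replicate 3, 1 of the 3 with low Hspa8, and each time it was the lowest of its nucleus.

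VPM replicate 3 had 142 CPM of Nrcam, where the other VPM libraries had 196 to 201. It had 205 CPM of L1cam against 371 to 396 in the others, and 29.2 CPM of Nfasc against 46.7 to 50.4. Cntnap4 was at 22.8 CPM against 31.5 to 33.4, and Cntnap1 at 0.806 CPM against 3.29 to 4.26. For the latrophilin Adgrl3 the value was 56.6 CPM against 79.1 to 83.2. Flrt1 was at 3.54 CPM against 7.42 to 8.40, Lrrtm4 at 11.9 CPM against 24.6 to 26.2, and Slitrk2 at 0.682 CPM against 2.25 to 2.52.

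In dLG, replicate 2, also of low Hspa8, had the lowest Cbln2, at 80.6 CPM against 109 to 115 in the other dLG libraries. The same library had the highest Cntn2, at 16.8 CPM against 9.68 to 10.5. Replicate 1 had the lowest Nlgn2, at 13.3 CPM against 16.1 to 16.7.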

How the results depend on the processing

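Of 42 calls of the 19 members given in full, 34 passed the threshold in each refit with another test, scaling, filter or set of libraries, 30 also passed at stricter limits on p and fold change (up to 23 alternatives a call), and 0 changed direction. Between dLG and VPM, 14 members were called with edgeR, 26 with limma voom and 9 with a log2 fold change of at least 1, and that last limit left 12 of 22 between VPM and MGv. Leaving out 1 library at a time gave 10 to 16 calls between dLG and VPM, 15 to 20 between dLG and MGv, 18 to 24 between VPM and MGv, and 24 to 29 among the nuclei. Of the 15627 to 16566 genes tested in these fits, 1093 to 2223, 1886 to 3300, 2024 to 3235 and 3001 to 4649 were called. DESeq2 called 16, 19, 23 and 28 members in the same order, and 2228, 3096, 3633 and 4802 of the 33170 genes with a count, all of which it was given. With a replicate block the counts were 13, 16, 20 and 24 members and 1464, 2169, 2695 and 3318 of the 15907 genes, where the fit without it called 1704, 2562, 3016 and 3847 of the same genes. The labels do not say what a shared replicate number means, and the deviations of same-numbered libraries from their nucleus had a mean correlation of 0.0155 over 10 pairs (-0.203 to 0.483), against -0.00505 over the other 30, so the numbers were not taken to pair the libraries. Of the 75 contrasts of members not called, 19 were called with limma voom, 9 without the libraries of low Hspa8 (Flrt1, Cntn2 and Nlgn1 between dLG and VPM, Cntn6 and L1cam between dLG and MGv, and Cbln2, L1cam, Cntn2 and Nlgn1 between VPM and MGv) and 4 with DESeq2 (Cntn3 and Cbln4 between dLG and VPM, Cntn3 between dLG and MGv, and Cntn2 between VPM and MGv), and the cause was not tested. Over all genes, limma voom called 4414, 3068 and 4013 of 15907 in the same order of contrasts. Without the libraries of low Hspa8, 2618, 3209 and 3078 of 16234 genes were called. The share of all uncalled contrasts that each fit added is not given here, so these gains are not read as particular to the members. Per length, the levels were lowest for Slitrk2, Cntn3 and Cntnap1.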
